A study of Homo sapiens with 6 samples.

Results

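The HOX genes were followed in cells labelled Hep3B, a human hepatocellular carcinoma line, transfected with a control small interfering RNA (siRNA), si-NC, or with si-SNHG17-1, which targets SNHG17, a long noncoding RNA. The members are the genes of the deposited count table whose symbol is HOX, a cluster letter from A to D and a number, which gave 39 of 58243 genes. Each group had 3 libraries from total RNA, and every library came from the same line in the same medium with serum, so that the siRNA is the only labelled difference. A single siRNA against SNHG17 was used, and whether replicates came from different cultures is not in the labels. The p-values therefore reflect library-to-library spread alone, which may be technical.

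HOX genes encode homeodomain transcription factors that give cells their position along the head-to-tail axis and, for the high-numbered members of the A and D clusters, along the limb and the urogenital tract. Mammals carry them in clusters named A, B, C and D on different chromosomes, and genes with the same number in different clusters are paralogs that descend from the same ancestral gene. Within a cluster the low-numbered genes are switched on early and in anterior tissue, and the high-numbered genes late and in posterior tissue. HOX proteins bind DNA together with cofactors of the TALE homeodomain family (PBX and MEIS proteins). Polycomb complexes keep clusters silent, MLL complexes keep them active, and adult cells often retain the pattern set in the embryo.

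SNHG17 went from 23.0 ± 0.789 to 8.11 ± 0.139 CPM (SD, n = 3), with a log2 fold change of −1.51 ± 0.12 (SE, adjusted p = 0.00101). Total counts per library ranged from 30207055 to 42271168, and 3 counts, used as a floor, corresponded to between 0.0710 and 0.0993 CPM. This unit is the count scaled to library size, here with TMM factors. The label was checked against a list of 19 hepatocyte and hepatoma markers, and 15 of them were under 1 CPM in si-NC. ALB, which encodes albumin, averaged 0.364 CPM and AFP, which encodes alpha-fetoprotein, 0.0673 CPM, while GPC3 and TTR had 0 counts in every library. CPS1, the first enzyme of the urea cycle, was at 1359 CPM, and others at or above 1 CPM included FGG at 1.19 and CYP3A4 at 1.18 CPM. The cells are therefore called by their label only. The summed CPM of 8 epithelial markers was 2464 to 2861 in si-NC and 1801 to 1870 in si-SNHG17-1, with KRT7, a simple-epithelium keratin, falling from 1721 to 1100.0 CPM (adjusted p = 0.00332), and the summed hepatocyte list, nearly all CPS1 (called lower, adjusted p = 0.0203), was 1310.0 to 1466 and 1090.0 to 1134. The sum of 10 mesenchymal markers overlapped, at 871.0 to 1254 and 1065 to 1162, but the collagen genes COL1A1 (adjusted p = 0.0485) and COL3A1 (adjusted p = 0.0175) rose. The sum of 5 endothelial markers was 2.77 to 4.41 and 6.32 to 8.22 CPM, with CDH5, a junction cadherin, called higher (adjusted p = 0.0135). At an unadjusted p under 0.05, 1 of the 4 tested endothelial markers was higher and 1 was lower. The sum of 6 leukocyte markers was 32.9 to 38.7 and 41.9 to 60.6, with 0 called by edgeR or limma-voom (1 higher by DESeq2, and 1 higher at an unadjusted p under 0.05). Of these 6 markers, 5 were under 1 CPM in si-NC, and the 2 tested had a median log2 fold change of −0.28. The 11 tested hepatocyte markers had a median of 0.55, opposite in sign to the fall of their sum. Of the marker calls, that of KRT7 was kept in all 6 fits with 1 library omitted, while those of CPS1, COL1A1, COL3A1 and CDH5 were lost in at least 2 of them (adjusted p up to 0.138). The part of these changes in the HOX results was not tested. In such bulk RNA, fewer cells of a type and less RNA per cell cannot be told apart.

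Of the 39 HOX genes, 31 averaged at least 1 CPM in si-NC, and genes of all 4 clusters were among them. They were 10 of 11 HOXA, 9 of 10 HOXB, 7 of 9 HOXC and 5 of 9 HOXD genes. To compare genes with one another, CPM was divided by the length of all annotated exons in kb, bases shared with other genes included. Unshared were only 37.5% of the exon bases of HOXA7, 25.9% of HOXD3, 41.9% of HOXD1 and 19.5% of HOXD4. How reads in shared bases were counted is not known, so the per-kb levels of such genes are less certain. On this scale the level of the whole family was 231.3, 231.9 and 246.7 CPM per kb in the si-NC libraries, and HOXA held 36.2% ± 1.84 of it, HOXC 35.8% ± 1.51, HOXB 22.6% ± 1.13 and HOXD 5.37% ± 0.0335 (SD, n = 3). HOXA and HOXC thus differed by less than their spread, and HOXD stood lowest. By paralog number, the posterior genes 9 to 13 held 72.1% ± 0.878, the central genes 4 to 8 held 22.5% ± 1.02 and the anterior genes 1 to 3 held 5.41% ± 0.597.

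**Figure D1:**
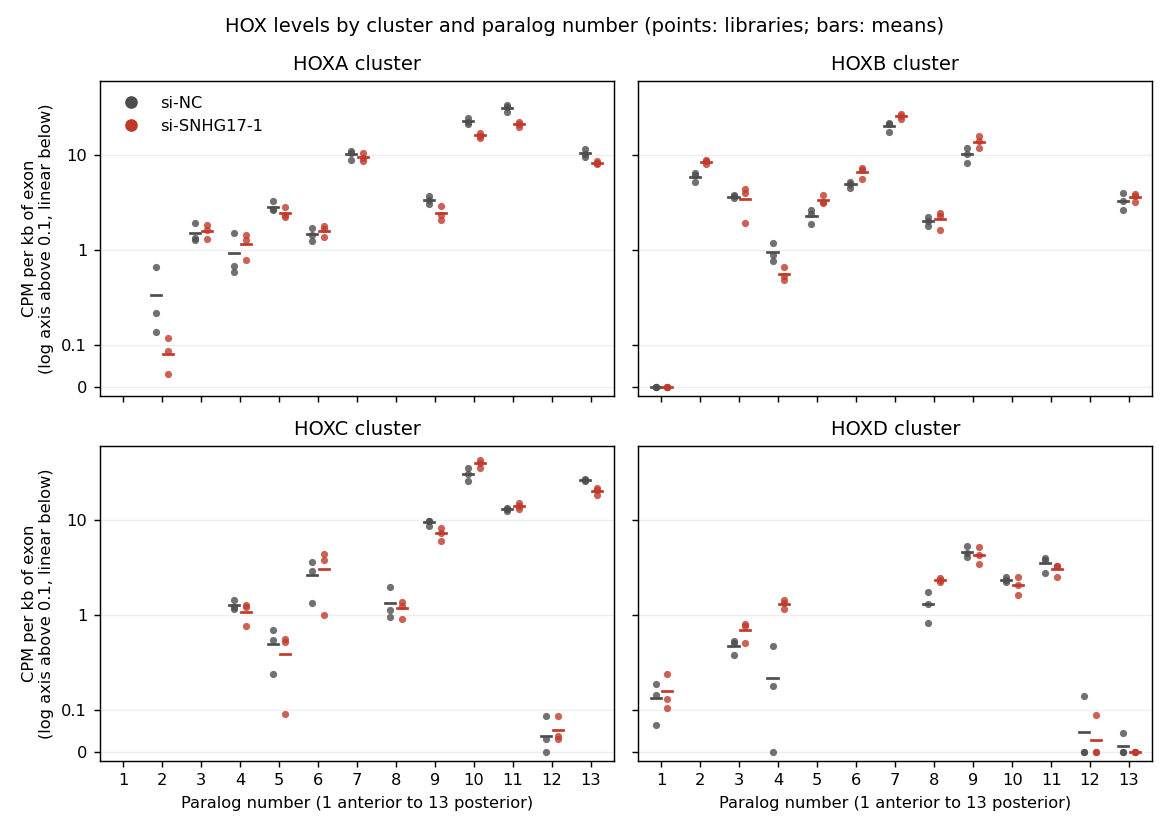
Level of the HOX genes reported here in CPM per kb of exon (vertical axis, logarithmic above 0.1 and linear below) against paralog number, 1 panel per cluster, with a point per library (grey si-NC, red si-SNHG17-1) and a bar at each group mean. In si-NC the highest levels were those of HOXA11 (31.1), HOXC10 (30.4), HOXC13 (26.2), HOXA10 (22.7) and HOXB7 (20.2), and HOXB1 was at 0 in all 6 libraries.

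The order of levels in si-NC began with posterior genes. HOXA11, a regulator of limb and uterine development, was at 31.1 ± 2.74 CPM per kb and HOXC10 at 30.4 ± 4.61 (SD, n = 3), which did not differ beyond their spread. HOXC13, known for its role in hair and nail keratinocytes, followed at 26.2 ± 0.539, HOXA10, which patterns the uterus and the hind limb, at 22.7 ± 1.68, and the central gene HOXB7 at 20.2 ± 2.34. The si-NC libraries of HOXC13, up to 26.81, overlapped those of HOXC10, which began at 25.94, so these 2 genes are not ordered either. HOXA10 and HOXB7 were again within their spread of each other. Next came HOXC11 at 13 ± 0.447, then HOXA13, HOXA7, HOXB9 and HOXC9 between 9.42 and 10.4 CPM per kb, which could not be put in order beyond their spread. These 5 leading genes lay between percentile 84.8 and percentile 90.9 of the per-kb levels of all tested genes, and 13 of 35 tested HOX genes were above the median gene at 3.93 CPM per kb. Dividing by the longest transcript in place of all exons kept the same 5 genes at the top, in the order HOXC10, HOXA10, HOXA11, HOXC13 and HOXB7.

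The remaining genes were lower, and paralogs of the same number often differed. HOXB2 was at 5.93 CPM per kb and its paralog HOXA2 at 0.337. HOXB6 was at 4.92, HOXA6 at 1.47 and HOXC6 at 2.62 CPM per kb. HOXD9, HOXD11, HOXA9, HOXB3 and HOXB13 fell between 3.30 and 4.63 CPM per kb. The paralogs of group 13 were present from 3 clusters only, since HOXD13, the last gene of the D cluster, had 4 counts in a single si-NC library and 0 elsewhere. Group 12 was near the floor, with HOXC12 at 4, 12 and 0 counts in si-NC against 4, 12 and 4 in si-SNHG17-1, and HOXD12 at 8 and 5 counts in replicate 2 of each group and 0 elsewhere. HOXB1, a gene of the hindbrain, was at 0 throughout, and a true level of up to 0.0993 CPM could go undetected in the shallowest library. These 4 genes did not pass the filter on low counts and were not tested.

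After si-SNHG17-1, 3 of the 35 tested HOX genes fell (HOXA10, HOXA11 and HOXC13), 1 rose (HOXB2) and 31 were not called at an adjusted p under 0.05. Among all 18679 genes tested 5.21% fell and 5.25% rose, so the HOX share called in either direction, 11.4%, was near the 10.5% of all genes. The 3 si-SNHG17-1 libraries lay wholly below the si-NC libraries in 9 tested HOX genes (25.7%, against 17.3% of all genes) and wholly above in 7 (20%, against 16.4%), where 33.7% of all genes were separated in either direction. At an unadjusted p under 0.05 there were 8 higher and 8 lower HOX genes, 45.7% of those tested, against 26.8% of all genes. HOXA2, HOXC5 and HOXD4 reached the count cutoff of the filter in all 3 libraries of just 1 group. Without them, 8 of 32 genes were lower (25%) and 6 higher (18.8%) in every si-SNHG17-1 library. At an unadjusted p under 0.05, 7 of these 32 genes were higher and 7 lower (43.8%). The median log2 fold change was −0.083 over the 35 HOX genes and −0.0017 over all genes, with 18 HOX values below 0 and 17 above. The HOX median was 0.0078 when 1 CPM was required in 3 or more libraries and 0.024 without si-SNHG17-1 replicate 3, so it had no stable sign. The total level of the family was 236.6 ± 8.72 CPM per kb in si-NC and 232.9 ± 9.86 in si-SNHG17-1, a difference within the spread.

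**Figure D2:**
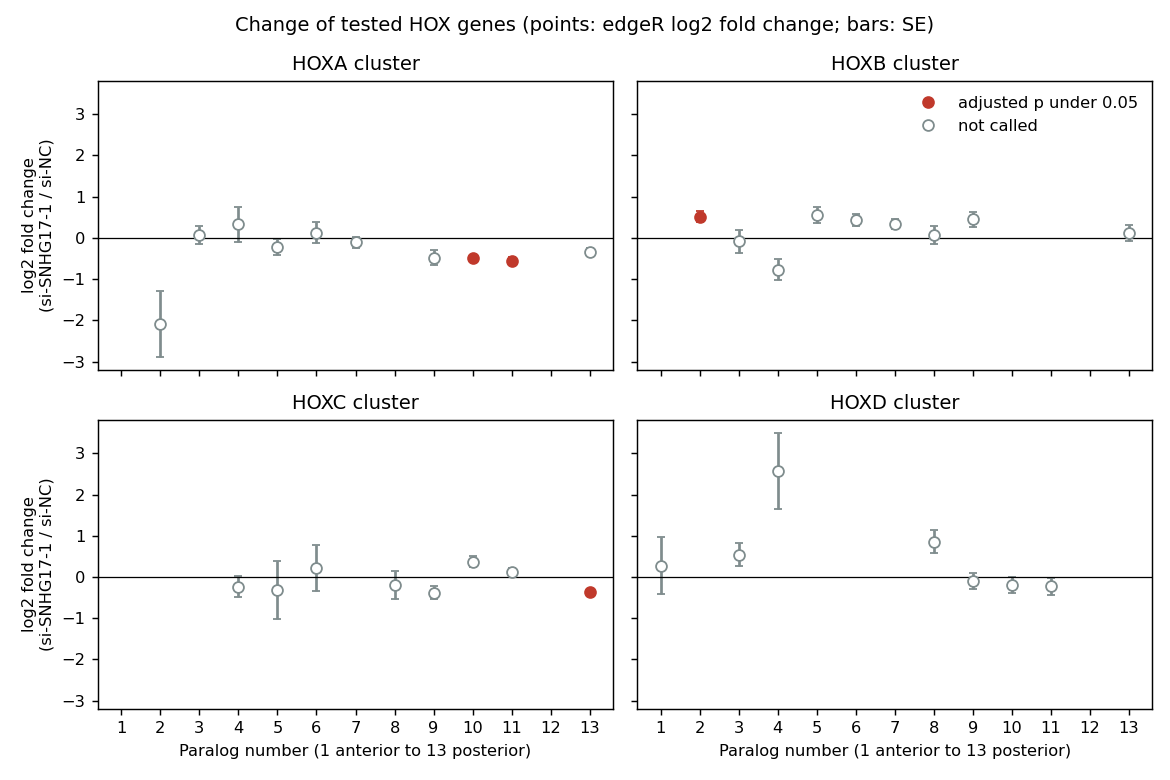
Log2 fold change of si-SNHG17-1 against si-NC (vertical axis) by paralog number for the tested HOX genes reported here, 1 panel per cluster, with bars of 1 SE and filled red points for genes with an adjusted p under 0.05. The called genes are HOXA10 (−0.50), HOXA11 (−0.56), HOXC13 (−0.38) and HOXB2 (0.51), and the widest bars belong to HOXA2, HOXC5, HOXD1 and HOXD4, which had few counts.

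The called falls in the A cluster were those of posterior genes. HOXA11 (ENSG00000005073.5, chromosome 7 from 27181510 to 27185223, minus strand, GRCh38) was at 73.8, 64.7 and 76.8 CPM in si-NC against 45.6, 51.7 and 48.4 in si-SNHG17-1. No si-SNHG17-1 library reached the lowest si-NC library, and the log2 fold change was −0.56 ± 0.10 (SE, adjusted p = 0.0157). HOXA10 (ENSG00000253293.4, chromosome 7 from 27170591 to 27180261, minus strand) was at 82.0, 79.0 and 91.0 CPM in si-NC against 56.3, 59.4 and 62.9 in si-SNHG17-1, again without overlap, with a log2 fold change of −0.50 ± 0.091 (SE, adjusted p = 0.0171). HOXA10 lost its call when any of the 3 si-SNHG17-1 libraries was left out (adjusted p up to 0.0813), and HOXA11 lost it without si-SNHG17-1 replicate 1 or 3 (up to 0.0739).

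The other posterior genes of the cluster were lower in every si-SNHG17-1 library without being called. HOXA13, which shapes the distal limb and the hindgut, was at 48.0, 52.6 and 58.4 CPM in si-NC against 41.5, 40.5 and 43.5 in si-SNHG17-1 (log2 fold change −0.34 ± 0.10 SE, adjusted p = 0.0798). HOXA9, known for its part in blood progenitors and leukaemia, was at 9.26, 10.3 and 11.3 CPM in si-NC against 7.09, 8.83 and 6.22 in si-SNHG17-1 (−0.48 ± 0.18, adjusted p = 0.137). The summed level of these 4 posterior HOXA genes was 66.6, 63.1 and 73.1 CPM per kb in si-NC against 45.4, 49.3 and 48.5 in si-SNHG17-1, which did not overlap.

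The promoter windows of these 4 neighbours are shown because their genes differed in the same direction. They were taken from RefSeq (GRCh38.p14), which gave 27 windows of 300 bases for 20 HOX genes, each from 250 bases before to 50 after a start. A second HOXA10 window, at chr7:27174271-27174570 with 25 CpG and TATAAA, is not printed, and no window was available for HOXC13 or HOXB2. The windows are read 5′ to 3′ on the minus strand, with every CpG in capitals. They lie at chr7:27165488-27165787 (HOXA9), chr7:27179812-27180111 (HOXA10), chr7:27185183-27185482 (HOXA11) and chr7:27200042-27200341 (HOXA13).
HOXA9: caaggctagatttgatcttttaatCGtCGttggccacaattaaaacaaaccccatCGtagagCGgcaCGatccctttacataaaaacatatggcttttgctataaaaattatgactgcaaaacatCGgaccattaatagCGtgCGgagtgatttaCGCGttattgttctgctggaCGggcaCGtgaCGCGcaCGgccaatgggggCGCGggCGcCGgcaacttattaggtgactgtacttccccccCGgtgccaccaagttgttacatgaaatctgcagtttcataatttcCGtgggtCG
HOXA10: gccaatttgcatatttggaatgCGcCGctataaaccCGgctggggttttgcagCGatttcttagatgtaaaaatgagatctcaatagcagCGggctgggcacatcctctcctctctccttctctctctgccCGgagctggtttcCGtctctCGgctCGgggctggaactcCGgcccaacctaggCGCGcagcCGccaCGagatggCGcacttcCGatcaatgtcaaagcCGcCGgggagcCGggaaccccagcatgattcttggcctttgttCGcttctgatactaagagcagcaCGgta
HOXA11: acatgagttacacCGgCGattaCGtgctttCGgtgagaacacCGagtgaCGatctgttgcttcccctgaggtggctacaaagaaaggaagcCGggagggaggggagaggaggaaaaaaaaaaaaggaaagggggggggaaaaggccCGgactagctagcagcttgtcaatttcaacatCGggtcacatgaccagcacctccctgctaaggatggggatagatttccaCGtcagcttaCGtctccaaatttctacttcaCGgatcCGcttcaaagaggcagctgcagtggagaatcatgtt
HOXA13: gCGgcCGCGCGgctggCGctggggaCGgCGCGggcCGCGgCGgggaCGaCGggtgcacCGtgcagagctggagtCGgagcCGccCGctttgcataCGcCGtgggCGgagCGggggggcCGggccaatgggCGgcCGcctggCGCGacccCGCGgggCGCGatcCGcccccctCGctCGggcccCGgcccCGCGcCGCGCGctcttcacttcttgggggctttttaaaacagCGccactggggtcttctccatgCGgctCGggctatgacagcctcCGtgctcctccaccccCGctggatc
They hold 22, 21, 13 and 44 CpG respectively, against a median of 22 in the HOX windows and 14 in all 35116 windows. The windows of HOXA9 and HOXA10 contain TATAAA on one strand or the other, which 11.5% of all windows do, and those of HOXA11 and HOXA13 do not. Of the 4 windows only that of HOXA13 contains CCGCCC, present in 45.0% of all windows. TGATTNAT, the sequence bound by HOX and PBX proteins together, was in none of the 4 and, among the 27 HOX windows, in those of HOXA2 and HOXD11 (2.82% of all windows). The motifs were searched on both strands and chosen after the values were seen, and a match is a description of the letters only. The HOXA11 window lies within the antisense gene HOXA11-AS (chromosome 7 from 27184518 to 27189293, plus strand).

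HOXA11-AS, a noncoding RNA transcribed from the opposite strand, fell with HOXA11. Its CPM was 38.9, 40.6 and 33.6 in si-NC against 23.5, 26.5 and 24.6 in si-SNHG17-1, with no overlap and a log2 fold change of −0.60 ± 0.12 (SE, adjusted p = 0.0213). Leaving out single libraries removed this call in 4 of 6 fits (adjusted p up to 0.0972). The annotation places 717 of the 2307 exon bases of HOXA11 (31.1%) under exons of HOXA11-AS, and the sources used here do not say whether counting used strand, so reads of the pair cannot be told apart there. Added together, the pair had 109.5 ± 3.80 CPM in si-NC and 73.4 ± 4.56 in si-SNHG17-1 (SD, n = 3).

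The anterior and central HOXA genes gave no called change. HOXA2 had 61, 14 and 21 counts in si-NC against 3, 9 and 9 in si-SNHG17-1, so it reached the filter's cutoff in 3 si-NC libraries and 1 si-SNHG17-1 library and passed through si-NC (log2 fold change −2.08 ± 0.80 SE, adjusted p = 0.146). HOXA3, HOXA4, HOXA5, HOXA6 and HOXA7 had overlapping groups and log2 fold changes of 0.072, 0.33, −0.21, 0.12 and −0.11, with adjusted p from 0.529 to 0.878. In the whole cluster 8 of 11 values were below 0, with a median of −0.34, and 6 of 11 genes were lower in all si-SNHG17-1 libraries. Without HOXA2 these values were 7 of 10, −0.28 and 5 of 10. Among all genes tested, 17.3% were lower in all si-SNHG17-1 libraries.

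**Figure D3:**
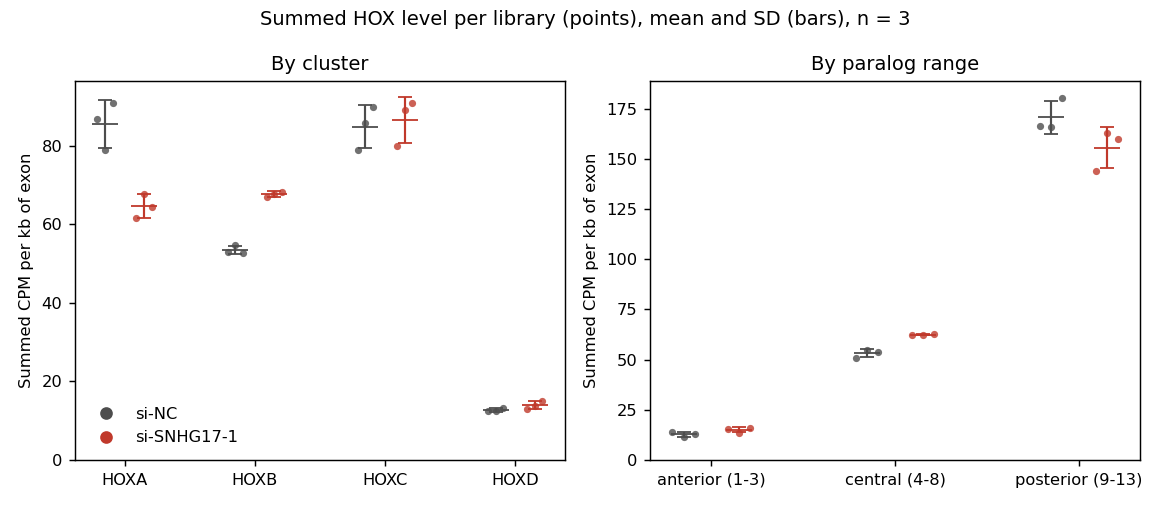
Summed HOX level in CPM per kb of exon (vertical axis, from 0) by cluster (left) and by paralog range (right), with a point per library, the group mean and bars of 1 SD, n = 3 (grey si-NC, red si-SNHG17-1). The HOXA sum went from 85.6 to 64.6 and the HOXB sum from 53.4 to 67.7 without overlap between groups, while the HOXC groups overlapped.

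In the B cluster 1 gene was called, and it rose. HOXB2 (ENSG00000173917.10, chromosome 17 from 48540894 to 48544989, minus strand), which specifies hindbrain segments, was at 14.4, 12.3 and 14.9 CPM in si-NC against 18.8, 20.1 and 20.4 in si-SNHG17-1. The groups did not overlap, and the log2 fold change was 0.51 ± 0.13 (SE, adjusted p = 0.0475). Omitting any one library removed this call (adjusted p from 0.0801 to 0.127) and with no filter on low counts.

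Further along the cluster HOXB5, HOXB6 and HOXB7, central genes of the trunk, were higher in every si-SNHG17-1 library but were not called. HOXB7 was at 26.8, 32.3 and 33.5 CPM in si-NC against 39.8, 36.9 and 40.9 in si-SNHG17-1 (log2 fold change 0.34 ± 0.12 SE, adjusted p = 0.114). HOXB6 was at 13.61, 13.03 and 11.80 CPM in si-NC against 14.63, 18.18 and 19.18 in si-SNHG17-1 (0.43 ± 0.15, adjusted p = 0.111). HOXB5 was at 4.71 ± 0.811 and 6.88 ± 0.731 CPM (0.55, adjusted p = 0.115). HOXB9, the next gene towards the posterior end with a level above 10 CPM, was at 30.7, 26.7 and 21.2 CPM in si-NC against 36.0, 40.7 and 30.3 in si-SNHG17-1, where replicate 3 fell just below the highest si-NC library (0.45, adjusted p = 0.144).

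HOXB3 and HOXB4, which lie between HOXB2 and HOXB5, were not higher on average. HOXB4, a gene used to expand blood stem cells, was at 2.89, 4.50 and 3.35 CPM in si-NC against 1.81, 2.52 and 1.99 in si-SNHG17-1, lower without overlap but not called (log2 fold change −0.77 ± 0.26 SE, adjusted p = 0.104). HOXB8 and HOXB13, the latter a gene of prostate and hindgut, overlapped between groups (0.079 and 0.12, adjusted p of 0.859 and 0.747). HOXB3 was at 27.9, 26.4 and 27.5 CPM in si-NC but at 29.9, 14.5 and 32.9 in si-SNHG17-1, where replicate 2 stood apart from the others (−0.083, adjusted p = 0.888). Without si-SNHG17-1 replicate 2 its log2 fold change was 0.21. In all, 7 of 9 tested HOXB genes had values above 0, with a median of 0.34, and 4 were higher and 1 was lower in every si-SNHG17-1 library. Of all genes tested, 16.4% were higher and 17.3% lower in every such library.

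The share of the family's per-kb level that came from HOXA was 36.2% ± 1.84 in si-NC and 27.8% ± 0.680 in si-SNHG17-1, and that from HOXB 22.6% ± 1.13 and 29.1% ± 0.952 (SD, n = 3). The HOXA sum was 86.8, 79.0 and 91.0 CPM per kb in si-NC against 61.7, 67.7 and 64.5 in si-SNHG17-1. The HOXB sum was 53.0, 54.6 and 52.7 CPM per kb in si-NC against 66.9, 67.8 and 68.3 in si-SNHG17-1. Neither sum overlapped between groups. The cluster medians kept their sign, below 0 for HOXA and above 0 for HOXB, under all 13 alternative settings and left-out libraries. The HOXC median, from a cluster whose summed level overlapped between groups, was below 0 in all of them too (−0.30 to −0.023). These fits reuse the same libraries, and the difference between clusters was not itself tested. The HOXA and HOXB sums are set mostly by their most abundant genes, HOXA10 and HOXA11 in the one and HOXB7 and HOXB9 in the other.

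The C cluster was mixed. HOXC13 (ENSG00000123364.4, chromosome 12 from 53938765 to 53946544, plus strand) fell from 62.4, 63.3 and 65.0 CPM in si-NC to 44.8, 52.4 and 49.8 in si-SNHG17-1, with no overlap and a log2 fold change of −0.38 ± 0.092 (SE, adjusted p = 0.0434). Leaving out any one library removed this call (adjusted p from 0.0700 to 0.161), with scaling by total counts and with no filter. HOXC10, which marks posterior trunk and hind limb, was higher instead, at 60.5, 70.3 and 81.9 CPM in si-NC against 82.5, 93.1 and 99.7 in si-SNHG17-1. Its groups were separated by a narrow gap, and it was not called (0.37 ± 0.13, adjusted p = 0.113).

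Between these lay HOXC11, at 42.5 ± 1.46 CPM in si-NC and 45.9 ± 3.07 in si-SNHG17-1, with overlapping groups (0.11, adjusted p = 0.511). HOXC9 was at 14.62, 16.48 and 16.34 CPM in si-NC against 10.02, 13.98 and 12.37 in si-SNHG17-1, lower without overlap (−0.38 ± 0.16 SE, adjusted p = 0.173). HOXC4, HOXC5 and HOXC8 were low and overlapped between groups, with log2 fold changes of −0.23, −0.31 and −0.20 and adjusted p from 0.618 to 0.830. The summed HOXC level was 84.8 ± 5.49 CPM per kb in si-NC and 86.6 ± 5.88 in si-SNHG17-1 (SD, n = 3), within the spread.

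HOXC6 was split by library and not by group. It was at 10.19, 12.96 and 4.716 CPM in si-NC against 13.35, 3.584 and 15.56 in si-SNHG17-1 (0.22 ± 0.55 SE, adjusted p = 0.846). The noncoding RNA HOXA-AS3, from another chromosome, was low in the same 2 libraries, at 18.5, 17.8 and 3.66 CPM in si-NC against 18.7, 2.99 and 17.9 in si-SNHG17-1 (−0.019, adjusted p = 0.992). Replicate 3 of si-NC and replicate 2 of si-SNHG17-1 thus stood apart in both genes, and the cause was not tested.

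**Figure D4:**
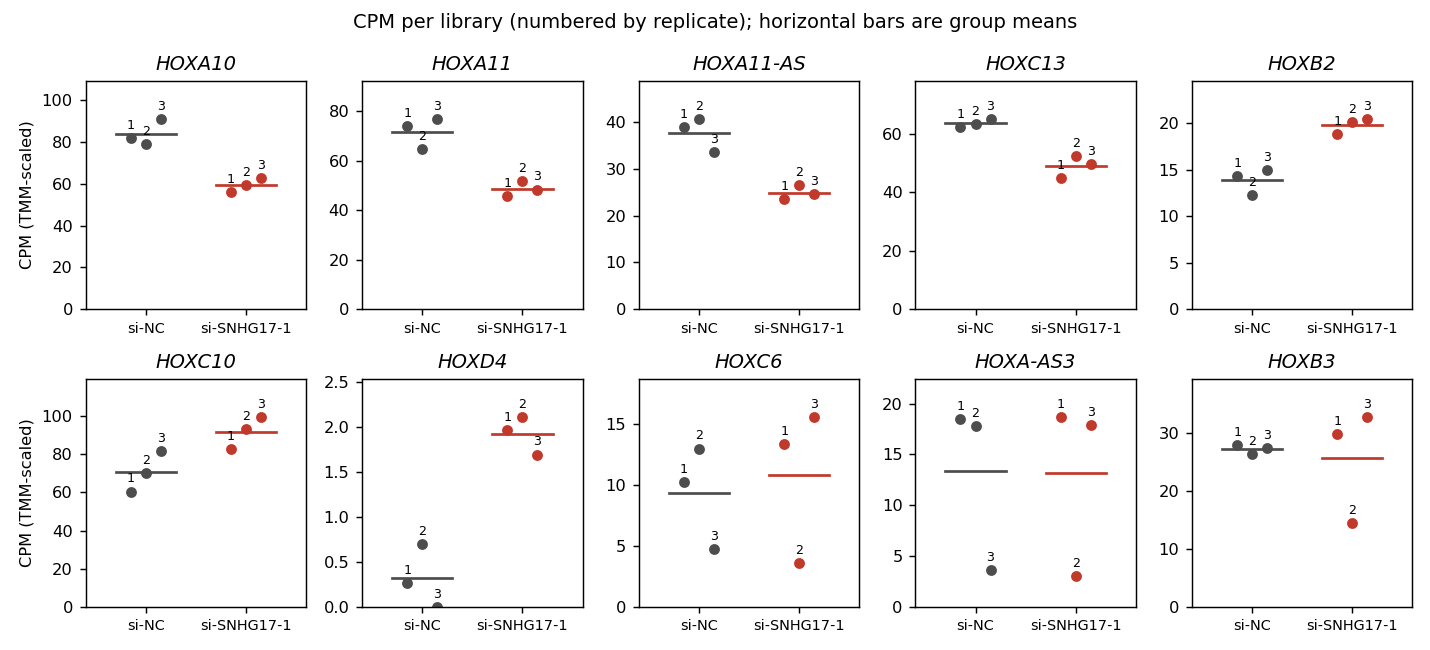
TMM-scaled CPM (vertical axis, from 0) in each library, numbered by replicate, for 10 genes of the HOX clusters, with a horizontal bar at each group mean (grey si-NC, red si-SNHG17-1). HOXA10, HOXA11, HOXA11-AS, HOXC13 and HOXB2 separate by group, while HOXC6 and HOXA-AS3 are low in si-NC replicate 3 and si-SNHG17-1 replicate 2, and HOXB3 in the latter alone.

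In the D cluster no gene was called by edgeR, although 2 of 7 tested genes had an unadjusted p under 0.05, both higher, and DESeq2 called these 2 while limma-voom called 0. They were HOXD4 and HOXD8, where 13.1% of all genes were higher at such a p. HOXD8 was at 2.15, 4.62 and 3.46 CPM in si-NC against 6.46, 6.22 and 5.86 in si-SNHG17-1, without overlap (log2 fold change 0.86 ± 0.28 SE, adjusted p = 0.0946, and 0.0490 with DESeq2). HOXD4 had 10, 29 and 0 counts in si-NC against 75, 89 and 52 in si-SNHG17-1 (2.57 ± 0.92 SE, adjusted p = 0.122, and 0.0217 with DESeq2).

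HOXD4 passed the filter through the si-SNHG17-1 libraries, where its counts were high, since in si-NC it reached the cutoff in 2 libraries. The gene shares 80.5% of its exon bases with AC009336.2 on the same strand, so counts could be split between them. Added together, both had 20, 43 and 49 counts in si-NC against 96, 120 and 59 in si-SNHG17-1, or 0.932 ± 0.363 and 2.43 ± 0.470 CPM (SD, n = 3), which did not overlap. HOXD1 and HOXD3 had log2 fold changes of 0.27 and 0.54 (adjusted p of 0.846 and 0.265), and the posterior genes HOXD9, HOXD10 and HOXD11 of −0.10, −0.20 and −0.22 (adjusted p from 0.553 to 0.798), all with overlapping groups. HAGLR, a noncoding RNA of this cluster, was higher in every si-SNHG17-1 library, at 1.22 ± 0.380 and 2.40 ± 0.568 CPM (0.97 ± 0.33 SE, adjusted p = 0.109). The HOXD median log2 fold change was 0.27, 0.085 without HOXD4, and −0.090 without si-SNHG17-1 replicate 2, so the cluster had no stable direction.

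By paralog number, 3 of 13 tested posterior genes fell and 0 rose by edgeR, DESeq2 or limma-voom, with 2 higher and 6 lower at an unadjusted p under 0.05. The background for these counts is all genes tested, of which edgeR called 5.21% lower and 5.25% higher. At an unadjusted p under 0.05, 13.7% of all genes were lower and 13.1% higher. Of 7 anterior genes 1 rose (HOXB2). None of 15 central genes was called by edgeR, DESeq2 called 2 higher and limma-voom 0, and at an unadjusted p under 0.05 there were 5 higher and 1 lower. HOXD4 is among the 2 and the 5, and without HOXC5 and HOXD4 there were 4 higher and 1 lower of 13. The posterior share of the family's per-kb level was 72.1% ± 0.878 in si-NC and 66.7% ± 1.66 in si-SNHG17-1, and the central share 22.5% ± 1.02 and 26.8% ± 1.11 (SD, n = 3). These shares differed by cluster. The posterior sum went from 67.6 to 47.8 CPM per kb in HOXA and from 10.6 to 9.44 in HOXD. It went from 13.4 to 17.4 in HOXB and from 79.1 to 80.9 in HOXC. Only in HOXA were the posterior groups without overlap. The central sum went from 30.4 to 38.4 in HOXB and from 1.5 to 3.7 in HOXD, and overlapped between groups in HOXA and HOXC. Paralog groups were not tested as such. Of group 10, HOXA10 fell, HOXC10 was higher without being called and HOXD10 overlapped. Of group 11 HOXA11 fell, while HOXC11 and HOXD11 overlapped between groups. In group 13 HOXC13 fell, HOXA13 was lower without being called and HOXB13 overlapped. All 3 genes of group 6 had values above 0 (HOXA6 0.12, HOXC6 0.22 and HOXB6 0.43), none of them called.

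Reads shared between paralogs were checked from the annotated transcripts. At most 0.995% of the 31-base words of any HOX gene occurred in a HOX gene of another cluster, and 0 of those of HOXA10, HOXA11, HOXC13 and HOXB2. Overlap within a cluster was common, since exons of 18 HOX genes overlap another gene on the same strand and those of 19 a gene on the other strand, and 14 overlap none. HOXA10 shares 9.9% of its exon bases with AC004080.3 on its strand and 16.4% with the antisense gene HOXA10-AS. With AC004080.3 added, HOXA10 was at 85.7 ± 6.48 CPM in si-NC and 61.0 ± 4.33 in si-SNHG17-1. Since strand use in counting is not known, reads of HOXA10 and HOXA10-AS cannot be told apart where they overlap. HOXC13 and HOXB2 share no exon base with a gene on their own strand and 7.1% and 3.7% with antisense genes.

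Of 29 noncoding and read-through genes listed for the HOX clusters, 17 were tested, and HOXA11-AS was the only one called. At an unadjusted p under 0.05 there were 1 higher (HAGLR) and 1 lower (HOXA11-AS), and DESeq2 and limma-voom called 0 higher and 1 lower. Of all genes tested, edgeR called 10.5%, and 26.8% had such a p, and this list lay below both shares. HOTAIR, a noncoding RNA of the C cluster known to interact with Polycomb proteins, was at 7.38 ± 1.75 CPM in si-NC and 7.79 ± 0.559 in si-SNHG17-1. HOTTIP, next to HOXA13 and known for its link to MLL complexes, was at 14.3 ± 0.841 and 14.6 ± 2.96, and HOTAIRM1, at the anterior end of the A cluster, at 21.4 ± 1.80 and 23.1 ± 0.387 CPM (SD, n = 3). These 3 overlapped between groups, with log2 fold changes of 0.079, 0.024 and 0.11. HOXA10-AS was at 26.4 ± 4.79 and 21.5 ± 4.55 CPM (−0.29, adjusted p = 0.403). The other antisense genes tested overlapped between groups too, namely HOXA-AS2 (−0.31), HOXB-AS1 (0.025), HOXB-AS2 (−0.28), HOXB-AS3 (−0.0084), HOXB-AS4 (−0.26), HOXC-AS1 (0.21), HOXC-AS2 (0.24), HOXC-AS3 (0.38), HOXC13-AS (−0.18) and HOXD-AS2 (−0.056 on the log2 scale).

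Cofactors and related homeobox genes gave no call by edgeR, DESeq2 or limma-voom. Of 9 tested TALE cofactors, 1 was higher and 1 was lower at an unadjusted p under 0.05, and the median log2 fold change was −0.043. PBX2, the most abundant in si-NC, was at 76.9 ± 17.3 CPM in si-NC and 74.6 ± 21.8 in si-SNHG17-1. Of 13 homeobox genes linked to HOX clusters or of the ParaHox family, 8 had 0 counts in every library, among them CDX1, CDX2 and CDX4, which activate HOX genes of the trunk in the embryo. The most abundant in si-NC was MEOX1, at 10.1 ± 1.201 and 7.15 ± 0.462 CPM (−0.50, adjusted p = 0.0840). It was not called, and it was the single one of 4 tested genes with an unadjusted p under 0.05. For both lists the background is all genes tested, of which edgeR called 10.5%, and 26.8% had such a p.

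Chromatin regulators of HOX clusters moved in both directions. Of 13 genes of Polycomb repressive complex 2, which methylates histone H3 at silent clusters, PHF1 rose from 40.2 ± 2.56 to 57.0 ± 5.53 CPM (0.51 ± 0.11 SE, adjusted p = 0.0276) and the core subunit EED fell from 30.4 ± 0.705 to 21.6 ± 1.53 (−0.50 ± 0.11, adjusted p = 0.0314). Of 24 genes of Polycomb repressive complex 1, those called included KDM2B (0.50, adjusted p = 0.0244) and YAF2 (0.52, adjusted p = 0.0406), which rose, and the chromobox gene CBX2 (−0.37, adjusted p = 0.0307), which fell. Of 27 genes of MLL complexes and their partners, DOT1L, the methyltransferase of histone H3 that keeps HOXA genes active in MLL leukaemia, rose from 79.5 ± 3.36 to 133.6 ± 12.4 CPM (0.75 ± 0.091 SE, adjusted p = 0.00430). The elongation factor ELL2 fell from 189.2 ± 12.8 to 136.6 ± 2.63 CPM (−0.47, adjusted p = 0.0109). All members of these 3 lists were tested. By edgeR, 1 was called higher and 1 lower in the first list, 2 and 2 in the second, and 1 and 1 in the third. Among all genes 10.5% were called in either direction. At an unadjusted p under 0.05, 5 were higher and 2 lower in the first list, 7 and 6 in the second, and 3 and 3 in the third. Such a p was found in 26.8% of all genes. The list medians were 0.21, 0.094 and 0.0099, beside −0.0017 for all genes.

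Of 16 tested genes of retinoic acid signalling, the main inducer of anterior HOX genes, 2 enzymes of its synthesis fell and 0 genes rose by any of the 3 tools, with 3 higher and 3 lower at an unadjusted p under 0.05. Among all genes 10.5% were called and 26.8% had such a p, which is the background for this list and for the next 2 lists, where 1 of 14 and 4 of 27 genes were called. ALDH1A3 went from 87.7 ± 4.92 to 66.2 ± 2.46 CPM (−0.41, adjusted p = 0.0231) and RDH10 from 57.5 ± 9.07 to 38.5 ± 0.908 (−0.58, adjusted p = 0.0316). Of 14 genes of CTCF and cohesin, which shape the loops of the clusters, SMC1A fell (−0.40, adjusted p = 0.0107) and 0 rose by any of the 3 tools, with 3 higher at an unadjusted p under 0.05. Of 27 tested homeobox and T-box genes outside the clusters, TBX3, a limb and liver regulator, rose from 87.4 ± 1.77 to 149.4 ± 6.17 CPM (0.77 ± 0.071 SE, adjusted p = 0.00191). Others called included IRX3, which rose (0.44, adjusted p = 0.0443), and PITX3, which fell (−1.14, adjusted p = 0.0277). DOT1L and TBX3 stayed called whichever library was omitted, and the other 11 genes of these regulator lists named as called lost theirs in at least 3 of those 6 fits (adjusted p up to 0.152).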

How the data were processed

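RNA was sequenced from cells labelled Hep3B, 3 libraries with si-NC and 3 with si-SNHG17-1, grouped by title. The authors deposited 1 table of unnormalised whole-number counts by gene. Alignment was with HISAT2 to GRCh38, per the submitters' processing notes; the sources used here name no counting program, annotation or strand setting. Exon lengths and coordinates came from GENCODE 29, in which all 39 HOX genes matched by identifier, 36 with the same version and coordinates.

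All genes were tested with edgeR 4.0.16 in R 4.3.3: filterByExpr (minimum count 10, minimum total 15), TMM scaling, the quasi-likelihood test, and Benjamini-Hochberg adjustment over 18679 genes. Each SE is the size of the log2 fold change over the root of its F statistic. On simulated counts, with the spread of each gene drawn as estimated, the false share among calls was above the nominal rate; with the trend-level spread it was not. Replicates differed by more than sampling noise (26.6 to 55.2 as chi-square over its degrees of freedom), so none was a copy. Floors cover counting error only.

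Alternatives were scaling by total counts or median-of-ratios factors, a 1 CPM filter or none, DESeq2 1.42.0, limma-voom 3.58.1, a replicate block and each library left out. Named were the tested HOX genes, and, of each list, at most 3 called members in each direction, or the most abundant where none was called; some genes that this rule names are not reported here. Members and lists were chosen with earlier results of these data known.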

Additional observations from a re-analysis of the deposited data

How the results depend on the processing

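HOX counts were small and depended on the processing. With 1 HOX gene higher and 3 lower in the fit described, the higher count was 0 with no filter beyond a total above 0, 3 with DESeq2, and 0 to 0 with a library left out; the lower count was 0 to 2 with a library left out. Over all genes, 980 higher and 974 lower became 627 lower with no filter, and 313 to 694 higher and 264 to 705 lower with a library left out. With DESeq2 there were 1426 higher and 1392 lower over all genes. The cause of these differences was not tested. With the longest transcript, the HOXC share was 34.2%, the HOXD share 5.71% and the posterior share 70.4%. Over single HOX genes and settings, 424 values stayed on their side of the threshold, 24 lost a call and 2 gained one (HOXD4 and HOXD8 with DESeq2). The call of SNHG17 and the directions of HOXA10, HOXA11, HOXC13 and HOXB2 held in every setting.

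Same-numbered libraries did not deviate together (correlations of −0.017, −0.037 and −0.015), so no effect shared by replicate number was seen. These values cannot show whether the samples were prepared in pairs. With a replicate block, 0 HOX genes were higher and 0 lower, and 273 genes were higher and 259 lower over all genes.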
